A study of Mus musculus with 16 samples.

Results

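The genes described here are 10 genes of the kidney's collecting duct: Scnn1a, Scnn1b, Scnn1g, Avpr2, Hsd11b2, Nr3c2, Slc4a1, Slc26a4, Atp6v1b1 and Foxi1. They were taken by name, as 10 of the 56980 genes counted. Their Ensembl identifiers are ENSMUSG00000030340 for Scnn1a and ENSMUSG00000006269 for Atp6v1b1 (both on chromosome 6), ENSMUSG00000030873 for Scnn1b and ENSMUSG00000000216 for Scnn1g (chromosome 7), ENSMUSG00000031891 for Hsd11b2 and ENSMUSG00000031618 for Nr3c2 (chromosome 8), ENSMUSG00000006574 for Slc4a1 and ENSMUSG00000047861 for Foxi1 (chromosome 11), ENSMUSG00000020651 for Slc26a4 (chromosome 12) and ENSMUSG00000031390 for Avpr2 (chromosome X). All 10 were among the 17972 genes that passed a filter on low counts, and each had at least 41 reads in every library. RNA came from kidney cortex of male C57Bl/6J mice, in 16 libraries, 4 per group. The iGKO IRI group and the iGKO sham group carried floxed Degs1, the gene of dihydroceramide desaturase, together with the Rosa26-CreERT2 driver, a tamoxifen-inducible recombinase that acts throughout the body and is not directed to the collecting duct. The fl/fl IRI group and the fl/fl sham group were littermates with floxed Degs1 and no stated driver. Mice of all 4 groups had 3 mg of tamoxifen on each of 5 days from an age of 9 weeks, and all had surgery under ketamine, xylazine, buprenorphine and bupivacaine at 12 weeks. In IRI (ischemia-reperfusion injury) both kidney pedicles were clamped for 28 min, with reperfusion for up to 24 h, and sham surgery left out the clamping. The labels name 1 batch for all libraries and do not say that animals were pooled.

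The collecting duct sets the final sodium, water and acid content of urine. Its principal cells take up sodium through the epithelial sodium channel ENaC, built from alpha, beta and gamma subunits encoded by Scnn1a, Scnn1b and Scnn1g, and water under vasopressin, whose V2 receptor is encoded by Avpr2. Aldosterone acts there through the mineralocorticoid receptor, the product of Nr3c2, which is kept free of glucocorticoid by the enzyme encoded by Hsd11b2. Intercalated cells handle acid and base: type A cells secrete acid and carry the basolateral chloride-bicarbonate exchanger AE1 (Slc4a1, a protein also of red cells), type B cells secrete bicarbonate through pendrin (Slc26a4), both use a proton pump with the B1 subunit encoded by Atp6v1b1, and both depend on the forkhead transcription factor Foxi1.

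Promoter sequences are shown because Foxi1 is a forkhead factor and other intercalated cell genes are known targets of it in the mouse. RefSeq windows of build GRCm38.p6, from 250 bases before to 50 bases after the gene start, were found for 7 of the 10 genes; Scnn1a, Slc4a1 and Hsd11b2 are named only. The forkhead heptamer TGTTTAC was searched on both strands as those letters and its reverse complement GTAAACA. It was present in 1199 of 32851 such windows, or 3.65%. Among the 7 genes it was found in Atp6v1b1 (chr6:83742767-83743066, plus strand), 98 bases before the start, and in Avpr2 (chrX:73891852-73892151, plus strand), 131 bases before the start. The window of Slc26a4 (chr12:31559935-31560234, minus strand) held neither form of these letters, nor did those of Foxi1, Scnn1b, Scnn1g and Nr3c2. Capitals mark the heptamer, which is a match of letters and not a measured binding site.
Atp6v1b1: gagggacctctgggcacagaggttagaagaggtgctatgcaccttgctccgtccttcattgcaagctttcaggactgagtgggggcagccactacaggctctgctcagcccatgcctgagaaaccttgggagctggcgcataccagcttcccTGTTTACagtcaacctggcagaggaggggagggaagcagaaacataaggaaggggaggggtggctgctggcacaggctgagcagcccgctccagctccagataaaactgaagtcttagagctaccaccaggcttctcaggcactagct
Avpr2: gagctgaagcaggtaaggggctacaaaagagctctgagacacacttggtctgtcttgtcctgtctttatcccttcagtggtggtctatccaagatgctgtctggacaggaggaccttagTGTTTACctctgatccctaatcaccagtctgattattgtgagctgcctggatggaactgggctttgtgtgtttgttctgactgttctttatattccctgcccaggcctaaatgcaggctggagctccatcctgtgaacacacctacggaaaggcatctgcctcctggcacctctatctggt
Slc26a4: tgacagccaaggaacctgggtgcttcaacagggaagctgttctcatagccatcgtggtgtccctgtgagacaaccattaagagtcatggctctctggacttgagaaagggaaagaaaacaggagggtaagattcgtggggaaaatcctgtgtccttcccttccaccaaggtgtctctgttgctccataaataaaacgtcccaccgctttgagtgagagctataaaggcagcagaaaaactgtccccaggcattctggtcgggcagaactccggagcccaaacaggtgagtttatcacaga

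Libraries held 12704273 to 18816343 counts. Degs1 was checked first against the genotype labels, as CPM, the read count of a gene relative to the total of its library after TMM scaling, which is the unit of all levels here. After IRI it stood at 58.4, 54.8, 44.7 and 59.8 CPM in iGKO libraries 1 to 4, against 88.8, 115, 133 and 114 CPM in fl/fl libraries 1 to 4. After sham surgery it stood at 65.3, 50.7, 71.7 and 40.2 CPM in iGKO libraries and 113, 84.0, 98.7 and 105 CPM in fl/fl libraries. All iGKO libraries were below all fl/fl libraries, with means at 48.4% of fl/fl after IRI and 56.8% after sham (exact two-sided permutation test, p = 0.0286 each, the smallest that 4 against 4 libraries allow). By edgeR's test across all genes Degs1 was called after IRI (adjusted p = 0.0325) and not after sham (adjusted p = 0.9999). The call after IRI was lost without iGKO IRI 1, 2 or 3, fl/fl IRI 3 or 4 or fl/fl sham 4 (adjusted p from 0.0508 to 0.133), and with the compared groups fitted alone (0.317). Libraries iGKO IRI 3, iGKO sham 4 and fl/fl IRI 1 stood apart from their groups. The first of these had 110.2 CPM over 7 urothelium markers, against at most 22.7 CPM elsewhere, and 772 CPM over 8 adrenal, fat and muscle markers, against at most 294 CPM elsewhere, with the adrenal gene Cyp11b2 at 0 in every library. Library iGKO sham 4 had 0.443% of its counts from mitochondrial genes, against 2.05% to 6.48% in the others. Library fl/fl IRI 1 had 3744 CPM summed over 10 injured tubule markers, against 9571 to 15578 CPM in fl/fl IRI libraries 2 to 4.

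The genes differed widely in level, given here as CPM per kilobase of exon. In iGKO IRI Hsd11b2, at 87.8, and Scnn1a, at 26.5, were separate from each other and from the genes below, whose neighbours in order of level all overlapped. In iGKO sham Hsd11b2 averaged 80.0 and Avpr2 3.55 CPM per kilobase, the ends of an order that was the same as in fl/fl sham. In fl/fl IRI Hsd11b2 averaged 50.9 CPM per kilobase, and only Scnn1b, at 15.5, and Scnn1g, at 10.4, were neighbours whose libraries did not overlap. The order in fl/fl sham began with Hsd11b2 at 72.9 CPM per kilobase, above every other gene of the 10 in all 4 libraries. Scnn1a followed at 34.1, Slc26a4 at 26.1 and Atp6v1b1 at 21.6 CPM per kilobase, and neighbours among these overlapped. Scnn1b, Scnn1g, Slc4a1 and Foxi1 came next at 17.4, 14.7, 12.4 and 8.40 CPM per kilobase, again with overlapping neighbours. Nr3c2 at 5.64 and Avpr2 at 3.32 CPM per kilobase were each separate from the gene above.

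The first question is how injury changed these genes with and without Degs1. A gene is called, or said to rise or fall, where edgeR's quasi-likelihood test gave a Benjamini-Hochberg adjusted p under 0.05 over all genes tested. In iGKO kidneys 0 of the 10 genes were called after IRI by edgeR, as were 0 of all 17972 genes (0%). At an unadjusted p under 0.05 edgeR marked 1 of the 10, Foxi1, and 1145 of all genes, and DESeq2 called 0 of the 10 and 43 of all genes. The 10 genes had a median log2 fold change of -0.23 in iGKO, against -0.02 over all genes tested. In Scnn1a and Slc26a4 every iGKO IRI library was below every iGKO sham library, as was so for 2.76% of all genes, and none of the 10 was higher in every IRI library, as 2.24% of all genes were. With any single library left out, 0 of the 10 were called in iGKO. Fewer cells of a type and less RNA per cell cannot be told apart in these bulk libraries.

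In fl/fl kidneys 4 of the 10 genes fell after IRI: the ENaC alpha subunit, the mineralocorticoid receptor, AE1 and the B1 proton pump subunit. Over the whole data set 1259 of all 17972 genes, or 7.01%, fell in this comparison, 8.46% rose and 15.5% changed in either direction. No gene of the 10 rose, and all 10 had a fitted log2 fold change below 0, with a median of -0.63, against 0.01 over all genes tested. In 3 of the 10, Scnn1g, Atp6v1b1 and Nr3c2, every fl/fl IRI library was below every fl/fl sham library, as was so for 9.82% of all genes, and none of the 10 was higher in every IRI library, as 9.65% of all genes were. Other cell types moved with this comparison: all 10 injured tubule markers rose, while of 12 proximal tubule markers 7 fell, of 8 thick ascending limb markers 5 fell and of 9 markers of the distal convoluted and connecting tubule 3 did so. Of 8 neutrophil and macrophage markers 4 rose (median log2 fold change 2.09), with a sum of 73.1 to 271 CPM in fl/fl IRI and 73.9 to 112 CPM in fl/fl sham. Of 8 medullary collecting duct and thin limb markers 7 were tested, of which 1 rose and 2 fell (median -1.01), with a sum of 407 to 737 CPM in fl/fl IRI and 674 to 1230.3 CPM in fl/fl sham. The part of these cell types in the results was not tested. Bulk cortex libraries do not assign reads to cells, so no fall described here can be placed in collecting duct cells alone. With both genotypes averaged, Scnn1a, Atp6v1b1 and Nr3c2 fell after IRI, 3 of the 10 genes, while 5.55% of all genes fell, 6.32% rose and 11.9% changed in either direction.

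**Figure D1:**
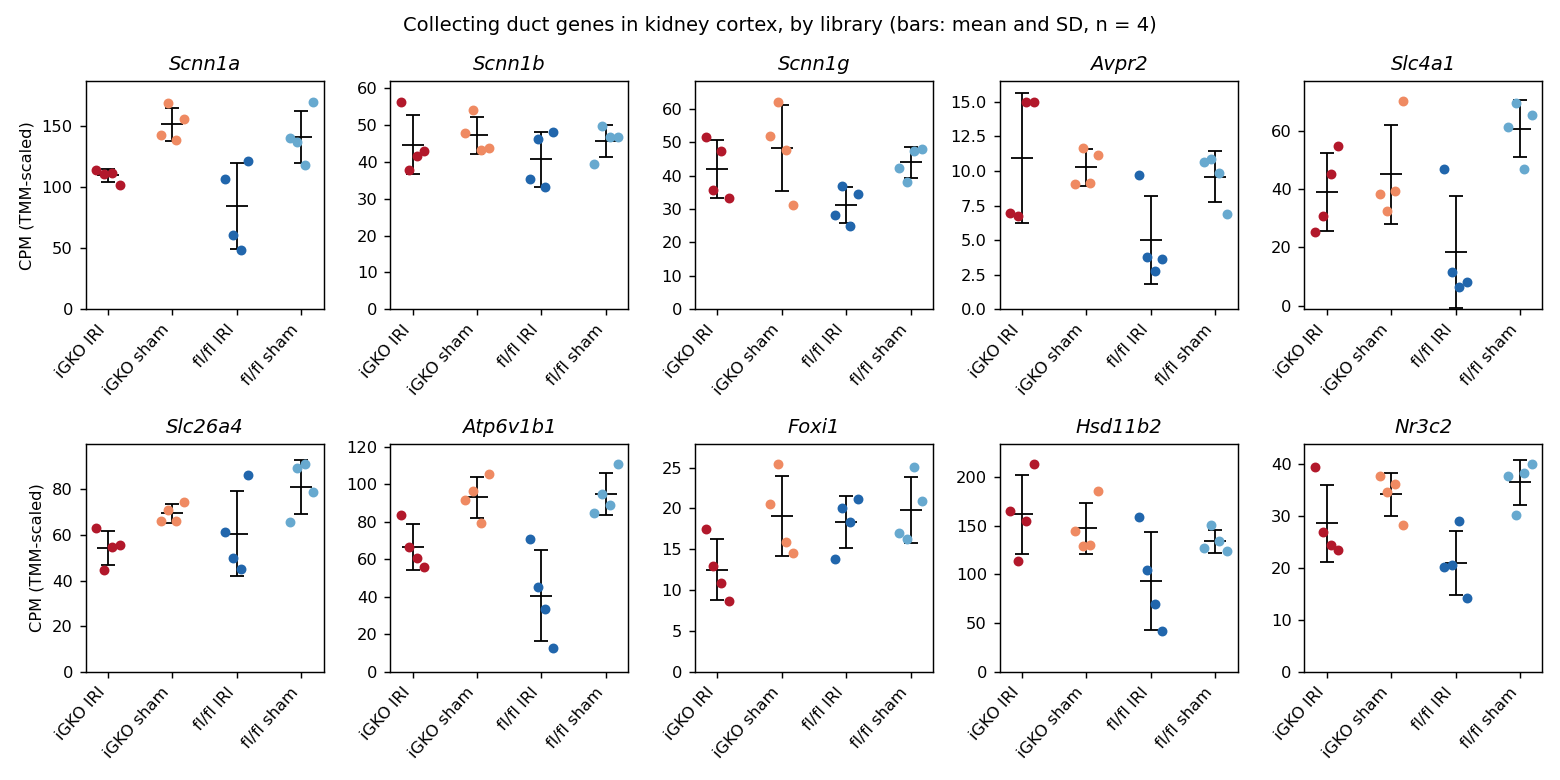
Level of each of the 10 genes in CPM with TMM scaling, by group, each point being 1 library (replicates 1 to 4 from left to right) and the bars the mean and SD of 4 libraries. Library fl/fl IRI 1 stands above the other fl/fl IRI libraries in Avpr2 (9.71 CPM) and Slc4a1 (47.2 CPM), and the axis of Slc4a1 extends below 0 to show its SD bar.

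Among the ENaC subunits, only the alpha subunit was called. Scnn1a stood at 114, 110.2, 112 and 102 CPM in iGKO IRI libraries 1 to 4, against 143, 168, 138 and 156 CPM in iGKO sham libraries. In fl/fl mice it stood at 106, 60.6, 48.8 and 121 CPM after IRI, against 139.9, 137, 118 and 169 CPM after sham. The iGKO groups did not overlap, whereas fl/fl IRI 2 and 3 were far below all other libraries and fl/fl IRI 4 lay within the sham range. Averaged over both genotypes, Scnn1a fell by 0.61 on the log2 scale (SE 0.16, edgeR adjusted p = 0.0206), a call kept under all 22 other settings tried. In iGKO it averaged 109 ± 5.27 CPM after IRI and 151 ± 13.5 CPM after sham, a log2 fold change of -0.47 with a 95% interval of -0.94 to 0.00 (edgeR adjusted p = 0.783). Within fl/fl it fell to 84.2 ± 34.9 CPM after IRI, against 141 ± 21.3 CPM after sham (SD, n = 4 each), which is a log2 fold change of -0.74 (SE 0.22, 95% interval -1.22 to -0.27, edgeR adjusted p = 0.0342). That call was lost without fl/fl sham 1, 2 or 4 or fl/fl IRI 2 or 3 (adjusted p from 0.0580 to 0.103), and when these groups were fitted alone (0.107).

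The beta and gamma subunits, whose genes lie side by side on mouse chromosome 7, were not called in any comparison fitted with all libraries. Scnn1b stood at 56.4, 37.8, 41.6 and 43.0 CPM in iGKO IRI, against 47.8, 54.1, 43.4 and 43.7 CPM in iGKO sham. Its fl/fl libraries stood at 35.4, 46.2, 33.2 and 48.2 CPM after IRI, against 39.5, 49.7, 46.9 and 46.7 CPM after sham. All 4 groups overlapped, and the 95% interval of its log2 fold change was -0.41 to 0.25 in iGKO and -0.50 to 0.17 in fl/fl. Scnn1g stood at 51.5, 35.8, 47.3 and 33.4 CPM in iGKO IRI, against 51.7, 62.1, 47.7 and 31.1 CPM in iGKO sham. Levels in fl/fl mice were 28.4, 36.9, 24.9 and 34.6 CPM after IRI, against 42.3, 38.1, 47.4 and 48.1 CPM after sham. The fl/fl groups of Scnn1g did not overlap, although the highest IRI and the lowest sham library were close, and the iGKO groups did overlap. Its log2 fold change in fl/fl was -0.49 (SE 0.20, edgeR adjusted p = 0.107). Averaged over both genotypes it was -0.35 (edgeR adjusted p = 0.122), and became a call without iGKO sham 4, the library of low mitochondrial share (-0.42, adjusted p = 0.0304).

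The balance of alpha to beta subunit transcripts was read within each library as the log2 ratio of their counts, which library size and scaling do not affect. The Scnn1a to Scnn1b ratio averaged 1.30 ± 0.23 in iGKO IRI and 1.68 ± 0.11 in iGKO sham, and all iGKO IRI libraries were below all iGKO sham libraries. It averaged 0.97 ± 0.58 in fl/fl IRI and 1.62 ± 0.26 in fl/fl sham (SD, n = 4 each). The lowest ratios of all, 0.39 and 0.56, were those of fl/fl IRI 2 and 3, while fl/fl IRI 1 and 4 were near or within the sham range at 1.59 and 1.33.

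Avpr2, the V2 receptor gene, was the lowest of the 10 in every group per kilobase, and it split the fl/fl IRI libraries. It stood at 6.98, 6.72, 15.0 and 15.0 CPM in iGKO IRI, against 9.08, 11.7, 9.11 and 11.1 CPM in iGKO sham. In fl/fl mice it stood at 9.71, 3.79, 2.79 and 3.67 CPM after IRI, against 10.7, 10.9, 9.85 and 6.92 CPM after sham. In fl/fl IRI 2, 3 and 4 the level was below all 13 others, and fl/fl IRI 1 lay in the sham range. In iGKO the log2 fold change was 0.09 (95% interval -0.65 to 0.84), and the iGKO IRI libraries formed a low pair and a high pair. The high pair, libraries 3 and 4, also had more Aqp2, the water channel of principal cells. Its levels there were 191 and 215 CPM, against 77.4 and 105 CPM in libraries 1 and 2. The sum of 12 vasopressin signalling and principal cell genes did not split this way, at 1485, 1259, 1396 and 1339 CPM in iGKO IRI 1 to 4. Library fl/fl IRI 4 had 185 CPM of Aqp2 with Avpr2 at 3.67 CPM. The part of principal cell content in the split was not tested. In fl/fl the log2 fold change of Avpr2 was -0.94 (SE 0.36, 95% interval -1.71 to -0.18, edgeR adjusted p = 0.0874). Without fl/fl IRI 1 it was -1.49 and was called (adjusted p = 0.00270). An exon of Avpr2 overlaps Arhgap4 on the opposite strand. The libraries were stranded per the labels' protocols, but the strand setting of the counting is not given in the sources used here, so reads of the pair may not be fully separated.

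The mineralocorticoid receptor gene, Nr3c2, was called in fl/fl kidneys. It stood at 39.6, 26.9, 24.5 and 23.4 CPM in iGKO IRI, against 37.7, 34.7, 36.2 and 28.4 CPM in iGKO sham. Its fl/fl libraries stood at 20.2, 20.7, 29.0 and 14.2 CPM after IRI, against 37.7, 30.2, 38.4 and 40.0 CPM after sham. The fl/fl groups did not overlap, with fl/fl IRI 3 close under the lowest sham library, and iGKO IRI 1 was above every iGKO sham library. In iGKO the log2 fold change was -0.26 (95% interval -0.70 to 0.18, edgeR adjusted p = 0.964). In fl/fl Nr3c2 fell to 21.0 ± 6.11 CPM after IRI, against 36.5 ± 4.36 CPM after sham (SD, n = 4 each), which is a log2 fold change of -0.80 (SE 0.21, 95% interval -1.24 to -0.36, edgeR adjusted p = 0.0180). This call was lost without fl/fl sham 3 (0.0506) or 4 (0.0527) and when these groups were fitted alone (0.0513). The average over both genotypes was -0.53 (SE 0.15, adjusted p = 0.0277). That call was lost without fl/fl sham 1, 3 or 4, iGKO sham 1 or 3, or iGKO IRI 2, 3 or 4 (adjusted p from 0.0527 to 0.0596), and with library size alone as the scaling (0.0832).

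Hsd11b2, whose product shields that receptor, was not called. It stood at 165, 114, 155 and 213 CPM in iGKO IRI, against 144, 129, 130.3 and 185 CPM in iGKO sham. Levels in fl/fl mice were 159, 104, 69.4 and 42.4 CPM after IRI, against 127, 151, 134 and 124 CPM after sham. Libraries fl/fl IRI 2, 3 and 4 were below all sham libraries, and fl/fl IRI 1 was above all fl/fl sham libraries. In iGKO the log2 fold change was 0.13 (95% interval -0.48 to 0.75). In fl/fl it was -0.52 (SE 0.29, 95% interval -1.14 to 0.10, edgeR adjusted p = 0.246), and without fl/fl IRI 1 it was -0.90 and was called (adjusted p = 0.0193). The log2 ratio of Nr3c2 to Hsd11b2 counts within a library ranged from -3.18 to -2.06 in iGKO IRI and -2.71 to -1.85 in iGKO sham. The range was -2.97 to -1.26 in fl/fl mice after IRI and -2.32 to -1.63 after sham, so all groups overlapped.

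Of the intercalated cell genes, those of AE1 and of the B1 pump subunit fell in fl/fl kidneys. Slc4a1 stood at 25.5, 30.7, 45.2 and 55.0 CPM in iGKO IRI, against 38.4, 32.7, 39.4 and 70.3 CPM in iGKO sham. In fl/fl mice it stood at 47.2, 11.5, 6.54 and 8.22 CPM after IRI, against 61.3, 69.8, 47.0 and 65.5 CPM after sham. In fl/fl IRI 2, 3 and 4 the level was below all 13 others, and fl/fl IRI 1 was level with the lowest sham library. In iGKO the log2 fold change was -0.21 (95% interval -1.21 to 0.79, edgeR adjusted p = 0.993). In fl/fl Slc4a1 fell to 18.4 ± 19.3 CPM after IRI, against 60.9 ± 9.90 CPM after sham (SD, n = 4 each), which is a log2 fold change of -1.73 (SE 0.49, 95% interval -2.76 to -0.70, edgeR adjusted p = 0.0261). Without fl/fl IRI 1 it was -2.80 and still called. The call was lost without fl/fl sham 1, 2 or 4 or fl/fl IRI 2, 3 or 4 (adjusted p from 0.0531 to 0.0743), and when these groups were fitted alone (0.0774). Slc4a1 is also a red cell gene, and the summed level of 8 erythrocyte markers ranged from 103 to 259.9 CPM in iGKO IRI and 120.4 to 217 CPM in iGKO sham. The same sum in fl/fl mice ranged from 127 to 296 CPM after IRI and 92.5 to 506 CPM after sham, and 0 of the 7 markers tested were called in any comparison.

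Atp6v1b1, the pump subunit gene, stood at 83.7, 66.6, 60.6 and 55.7 CPM in iGKO IRI, against 91.4, 96.3, 79.3 and 105 CPM in iGKO sham. Its fl/fl libraries stood at 70.8, 45.4, 33.3 and 13.0 CPM after IRI, against 84.6, 94.6, 89.2 and 111 CPM after sham. The fl/fl groups did not overlap, whereas in iGKO 1 IRI library reached into the sham range. In iGKO the log2 fold change was -0.48 (SE 0.32, edgeR adjusted p = 0.922). In fl/fl it fell to 40.6 ± 24.1 CPM after IRI, against 94.7 ± 11.3 CPM after sham (SD, n = 4 each), which is a log2 fold change of -1.22 (SE 0.32, 95% interval -1.91 to -0.54, edgeR adjusted p = 0.0194). The average over both genotypes was -0.85 (SE 0.23, adjusted p = 0.0232). Without fl/fl sham 4 or fl/fl IRI 3 both calls were lost, with adjusted p of 0.0549 and 0.0637 in fl/fl and 0.0506 and 0.0512 for the average, and the fl/fl call was lost when these groups were fitted alone (0.0803).

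The genes of pendrin and Foxi1 were not called with all libraries. Slc26a4 stood at 63.0, 44.8, 54.6 and 55.5 CPM in iGKO IRI, against 66.1, 71.2, 66.2 and 74.7 CPM in iGKO sham. Levels in fl/fl mice were 61.4, 49.8, 45.0 and 86.3 CPM after IRI, against 65.5, 89.2, 90.9 and 78.8 CPM after sham. The iGKO groups did not overlap, and in fl/fl only fl/fl IRI 4 reached into the sham range. The log2 fold change was -0.35 in iGKO (95% interval -0.74 to 0.03, edgeR adjusted p = 0.819) and -0.42 in fl/fl (95% interval -0.80 to -0.04, edgeR adjusted p = 0.127). Averaged over both genotypes it was -0.39 (SE 0.13, adjusted p = 0.0601). Without fl/fl IRI 4 it was -0.64 in fl/fl (adjusted p = 0.0173) and -0.50 on average (0.00792), both calls, and DESeq2 also called the average (adjusted p = 0.0418).

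Foxi1, the forkhead factor, stood at 17.5, 13.0, 10.9 and 8.65 CPM in iGKO IRI, against 20.5, 25.4, 15.9 and 14.6 CPM in iGKO sham. In fl/fl mice it stood at 13.8, 20.1, 18.3 and 21.1 CPM after IRI, against 17.0, 16.2, 25.1 and 20.9 CPM after sham. Of the fl/fl IRI libraries all but the first lay within the sham range, and the lowest 3 values of all 16 were in iGKO IRI. In iGKO the log2 fold change was -0.61 (SE 0.24, 95% interval -1.11 to -0.11, edgeR adjusted p = 0.683). In fl/fl it was -0.11 (SE 0.23, 95% interval -0.60 to 0.38, edgeR adjusted p = 0.789).

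Ratios within a library set the intercalated cell genes against each other. The log2 ratio of Slc4a1 to Slc26a4, the type A to the type B exchanger, averaged -0.53 ± 0.56 in iGKO IRI and -0.69 ± 0.43 in iGKO sham. In fl/fl mice it was -0.38, -2.12, -2.78 and -3.39 in IRI libraries 1 to 4, and averaged -0.42 ± 0.37 after sham (SD, n = 4). Libraries fl/fl IRI 2, 3 and 4 were below every other library, and fl/fl IRI 1 was within the sham range. The log2 ratio of Atp6v1b1 to Atp6v1b2, the gene of the B2 pump subunit found in many cell types, averaged -2.43 ± 0.36 in iGKO IRI and -1.98 ± 0.23 in iGKO sham. In fl/fl mice it was -2.38, -3.43, -3.55 and -5.65 in IRI libraries 1 to 4, and averaged -1.97 ± 0.29 after sham. Here all fl/fl IRI libraries were below all fl/fl sham libraries. Atp6v1b2 itself averaged 475 ± 130.1 CPM in fl/fl IRI and 370.1 ± 35.2 CPM in fl/fl sham (edgeR adjusted p = 0.166).

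**Figure D2:**
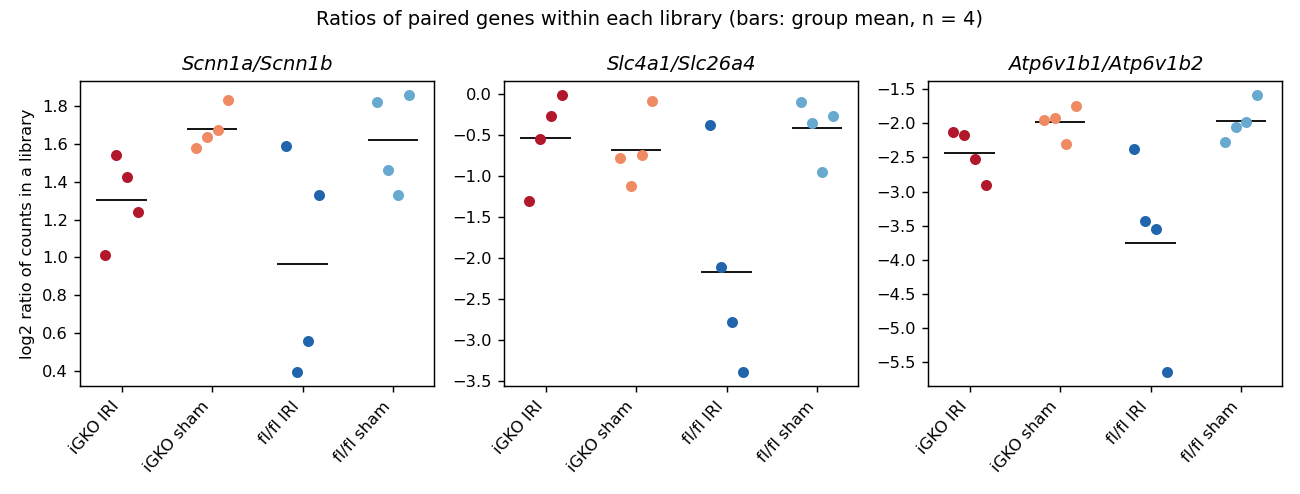
Log2 ratio of the counts of 2 genes within each library, for Scnn1a over Scnn1b, Slc4a1 over Slc26a4 and Atp6v1b1 over Atp6v1b2, by group, each point being 1 library and the line the mean of 4. Libraries fl/fl IRI 2, 3 and 4 lie below all others for Slc4a1 over Slc26a4 (-2.12, -2.78 and -3.39).

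The effect of Degs1 loss was then read within each surgery. Between injured kidneys, iGKO IRI against fl/fl IRI, 0 of the 10 genes were called by edgeR, against 0.851% of all genes, 0.178% higher and 0.673% lower. All 10 overlapped between the groups, whereas 2.48% of all genes were higher and 3.04% lower with no overlap. At an unadjusted p under 0.05 edgeR marked 7 of the 10 and 3440 of all genes. DESeq2 called 1 of the 10, Avpr2 (adjusted p = 0.0358), and 948 of all genes. Fitted levels were higher in iGKO IRI for 8 of the 10, with a median log2 fold change of 0.44, against -0.01 over all genes tested. These values share the fl/fl IRI libraries with the comparison of injury in fl/fl. The fitted values were 1.13 for Avpr2 (SE 0.36, adjusted p = 0.120), 1.09 for Slc4a1 (SE 0.48, adjusted p = 0.232), 0.79 for Hsd11b2 (SE 0.29, adjusted p = 0.173) and 0.71 for Atp6v1b1 (SE 0.32, adjusted p = 0.239). Foxi1 had the lowest, -0.55 (SE 0.24, adjusted p = 0.216), with 12.5 ± 3.77 CPM in iGKO IRI and 18.3 ± 3.22 CPM in fl/fl IRI (SD, n = 4 each).

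Library fl/fl IRI 1 weighed on this comparison. Without it 4 of the 10 genes were called higher in iGKO IRI, Slc4a1 (log2 fold change 2.16, adjusted p = 0.000647), Avpr2 (1.67, 0.00287), Hsd11b2 (1.17, 0.00870) and Atp6v1b1 (1.12, 0.0187) (edgeR throughout), and 2495 of all genes were called, against 153 with it. Injured tubule markers moved with the comparison: all 10 had a fitted value below 0 (median log2 fold change -1.87), and 6 were called lower in iGKO IRI. The sum of the 10 ranged from 1603 to 3364 CPM in iGKO IRI and 3744 to 15578 CPM in fl/fl IRI. The sum of 12 proximal tubule markers ranged from 14047 to 18567 CPM in iGKO IRI and 5002 to 17654 CPM in fl/fl IRI. The part of injury extent in the members' values was not tested.

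The difference between the responses of the genotypes, the interaction, was tested in itself. By edgeR 0 of the 10 genes and 0 of all genes (0%) were called. At an unadjusted p under 0.05 edgeR marked 1 of the 10, Slc4a1, and 2033 of all genes, and DESeq2 called 0 of the 10 and 113 of all genes. The response in iGKO minus that in fl/fl was 1.52 for Slc4a1 (SE 0.68, 95% interval 0.09 to 2.95, edgeR adjusted p = 0.414) and 1.03 for Avpr2 (95% interval -0.03 to 2.10, adjusted p = 0.456). Without fl/fl IRI 1 both were called, at 2.59 for Slc4a1 (adjusted p = 0.00402) and 1.58 for Avpr2 (0.0406). Foxi1 was the only one of the 10 with a negative value, -0.50 (95% interval -1.20 to 0.20).

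Between sham kidneys, iGKO sham against fl/fl sham, 0 of the 10 genes and 0 of all genes (0%) were called by edgeR. At an unadjusted p under 0.05 edgeR marked 0 of the 10 and 210 of all genes, and DESeq2 called 0 of both. All 10 genes overlapped between the groups, whereas 1.05% of all genes were higher and 0.874% lower with no overlap, and 5 of the 10 had a fitted value below 0. The fitted log2 fold changes ran from -0.43 for Slc4a1 (95% interval -1.43 to 0.57) to 0.13 for Hsd11b2 (95% interval -0.48 to 0.75). These intervals do not show the levels to be alike.

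**Figure D3:**
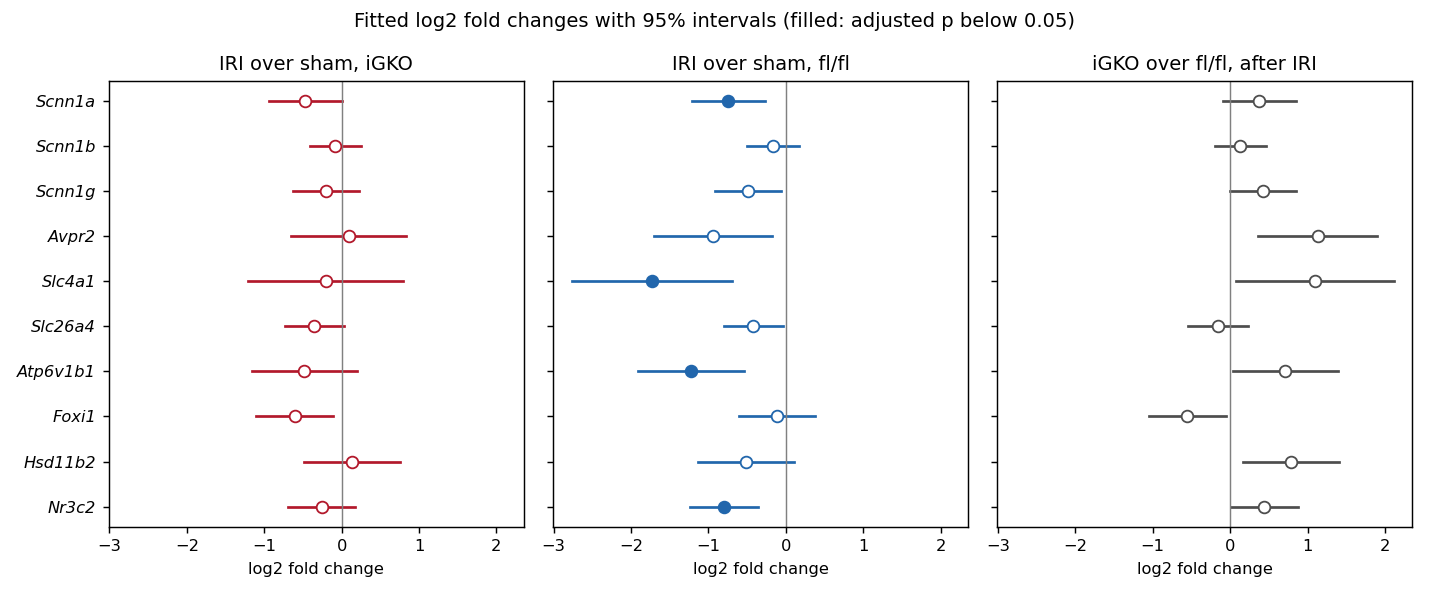
Fitted log2 fold changes with 95% intervals for the 10 genes, IRI over sham in iGKO, IRI over sham in fl/fl, and iGKO over fl/fl after IRI, with filled points for an adjusted p below 0.05. The filled points are Scnn1a (-0.74), Slc4a1 (-1.73), Atp6v1b1 (-1.22) and Nr3c2 (-0.80), all in fl/fl.

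Other genes of these pathways were taken from lists by function. In iGKO kidneys 0 genes of any of these lists were called. In fl/fl kidneys 6 of 18 other intercalated cell genes fell and none rose, with a median log2 fold change of -0.66, against 7.01% of all genes falling and a median of 0.01. They were Oxgr1, the receptor for oxoglutarate (-1.45, SE 0.28, adjusted p = 0.00406), Insrr, an alkali-sensing receptor (-1.28, SE 0.36, adjusted p = 0.0248), Rhcg, an ammonia transporter (-1.20, SE 0.33, adjusted p = 0.0234), the pump subunits Atp6v1c2 (-0.96) and Atp6v0a4 (-0.65), and the carbonic anhydrase Car12 (-1.39), which was named after its value was seen. In fl/fl sham Atp6v0a4 averaged 481 CPM and Car12 325 CPM, against 94.7 CPM for Atp6v1b1. Being in this list does not place a fall in intercalated cells, and the part of other nephron segments was not tested. Oxgr1 averaged 19.0 ± 4.30 CPM in iGKO IRI and 26.3 ± 6.11 CPM in iGKO sham, and 10.7 ± 4.77 CPM in fl/fl IRI and 29.3 ± 2.85 CPM in fl/fl sham (SD, n = 4 each). Without fl/fl sham 4 or without fl/fl IRI 3 the list had 2 calls, and 9 without fl/fl IRI 1. Insrr lost its call without fl/fl sham 2, 3 or 4 or fl/fl IRI 3 (adjusted p from 0.0527 to 0.0806), and Atp6v0a4 lost it in 17 of the 23 other settings. With the fl/fl groups fitted alone, Insrr (edgeR adjusted p = 0.0806) and Atp6v1c2 (0.0577) also lost their calls.

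Among 15 pump subunits shared by many cells, 1 fell and 1 rose in fl/fl, with a median of -0.09. These counts were near the shares of all genes, of which 7.01% fell and 8.46% rose. Atp6v1a, the catalytic A subunit, fell to 411 ± 123 CPM in fl/fl IRI, against 677 ± 62.2 CPM in fl/fl sham (SD, n = 4 each; log2 fold change -0.72, edgeR adjusted p = 0.0186), a call lost without fl/fl IRI 3 or 4 or fl/fl sham 1 (adjusted p from 0.0515 to 0.0619). Atp6v0a1, a membrane subunit, rose to 121 ± 21.2 CPM in fl/fl IRI, against 82.3 ± 4.30 CPM in fl/fl sham (log2 fold change 0.55, edgeR adjusted p = 0.00921), and was called in all 23 other settings. Atp6v1a also lost its call with the fl/fl groups fitted alone (edgeR adjusted p = 0.0652). The list had 1 call without fl/fl IRI 3 or 4 or fl/fl sham 1, and 4 without fl/fl IRI 1.

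Of 16 genes that regulate ENaC or answer to the mineralocorticoid receptor, 5 fell in fl/fl, against 7.01% of all genes. None of the 16 rose, and their median was -0.11. Those that fell included the kinase gene Wnk1 (-0.79), the potassium channel gene Kcnj10 (-0.72), the sodium pump beta subunit gene Atp1b1 (-0.79) and the deubiquitinase gene Usp2 (-1.26). Wnk1, Kcnj10 and Atp1b1 are also used by nephron segments other than the collecting duct. The aldosterone target Sgk1, a kinase gene named here after its values were seen, averaged 106 ± 21.5 CPM in iGKO IRI and 89.8 ± 25.2 CPM in iGKO sham. Sgk1 averaged 126 ± 112 CPM in fl/fl IRI, with fl/fl IRI 4 at 289.8 CPM, and 82.5 ± 17.8 CPM in fl/fl sham, and was not called (edgeR adjusted p = 0.346). Without fl/fl sham 1 or 4 or fl/fl IRI 3 or 4 the list had 3 calls in fl/fl, and Atp1b1 lost its call without any of these or without fl/fl sham 2 (adjusted p from 0.0513 to 0.0786). Atp1b1 also lost it with the fl/fl groups fitted alone (edgeR adjusted p = 0.0907).

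Of 11 vasopressin signalling and principal cell genes tested, from a list of 12, 1 fell in fl/fl, the water channel gene Aqp4. None of the 11 rose, and the median was -0.14, while 7.01% of all genes fell and 8.46% rose. Aqp4 stood between 0.608 and 2.18 CPM in fl/fl IRI, against 20.1, 1.49, 36.9 and 8.66 CPM in fl/fl sham (log2 fold change -3.66, SE 0.97, edgeR adjusted p = 0.0191). Its sham libraries were far apart, with 1 inside the IRI range, and the call was lost without fl/fl IRI 2 or 4 or fl/fl sham 3 (adjusted p from 0.0509 to 0.0682). Aqp2, the defining marker of principal cells, was present in all libraries. It averaged 147 ± 66.4 CPM in iGKO IRI and 104 ± 25.7 CPM in iGKO sham, and 103 ± 57.0 CPM in fl/fl IRI and 66.7 ± 27.8 CPM in fl/fl sham (edgeR adjusted p = 0.286 in fl/fl).

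Of 10 other acid-base and chloride transport genes, which belong largely to other nephron segments, 4 fell in fl/fl, against 7.01% of all genes. None of these 10 rose, and the median was -0.87. Those that fell included Slc9a3, a sodium-proton exchanger (-0.97), Slc4a4, a sodium-bicarbonate cotransporter (-0.80), and Car4, a carbonic anhydrase (-1.31). Slc9a3 was called in all 23 other settings. Slc4a4 lost its call when any fl/fl library other than fl/fl IRI 1 was left out (adjusted p from 0.0549 to 0.0875), and Car4 without fl/fl IRI 2 (0.0549) or fl/fl sham 3 (0.0615). Both also lost it with the fl/fl groups fitted alone (0.0885 for Slc4a4 and 0.0584 for Car4). The count was 1 without fl/fl sham 3, 2 without fl/fl IRI 2 or without fl/fl IRI 3, and 7 without fl/fl IRI 1. With the fl/fl groups fitted alone, the calls were 2 for other intercalated cell genes, 1 for shared pump subunits, 2 for ENaC regulators and mineralocorticoid targets, 1 for vasopressin signalling and principal cell genes and 2 for these acid-base and chloride genes.

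Likeness between genes was measured as the root mean square difference of log2 CPM over the 16 libraries after each gene was centred on its own mean. The candidates were tested genes of at least 1 CPM whose SD over the libraries was near that of the gene in question. Among 2064 candidates the nearest to Atp6v1b1 were Insrr, at 0.17, and Rhcg, at 0.18, both in the list of other intercalated cell genes. Rhcg stood at 105, 83.6, 92.3 and 84.6 CPM in iGKO IRI and 106, 49.9, 34.7 and 20.6 CPM in fl/fl IRI, the same order of fl/fl IRI libraries as Atp6v1b1. Rhcg was picked for its likeness over these same libraries, so the shared order is not separate evidence. The nearest to Scnn1a were Cyp27a1 and Mdh1, at 0.20 and 0.23, those to Scnn1b Zdhhc23 and Zfp318, at 0.14 each, and those to Scnn1g Exph5 and Slc25a5, at 0.15 and 0.17. For Avpr2 they were Mcrip2 and D10Jhu81e, at 0.23 and 0.25, for Hsd11b2 Sigirr and As3mt, at 0.14 each, and for Nr3c2 Pclo and Itga1, at 0.17 and 0.18. Slc4a1 was nearest to Hhatl and Dnajc12, at 0.27 and 0.29, Slc26a4 to Bcas3 and Gm49310, at 0.19 and 0.20, and Foxi1 to Ncoa2 and Ubqln2, at 0.20 and 0.25. Between the 10 genes themselves, without that limit on SD, the closest pair was Scnn1b and Scnn1g, at 0.24. The farthest pair was Slc4a1 and Foxi1, at 1.22. Such distances depend on how much each gene varied, so they do not show which of the 10 moved together. Scnn1b had the lowest SD of the 10, at 0.21, and Slc4a1 the highest, at 1.07. Atp6v1b1 was 0.85 from Foxi1. The 16 libraries share group effects and depth, so these distances describe the libraries and carry no test.

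**Figure D4:**
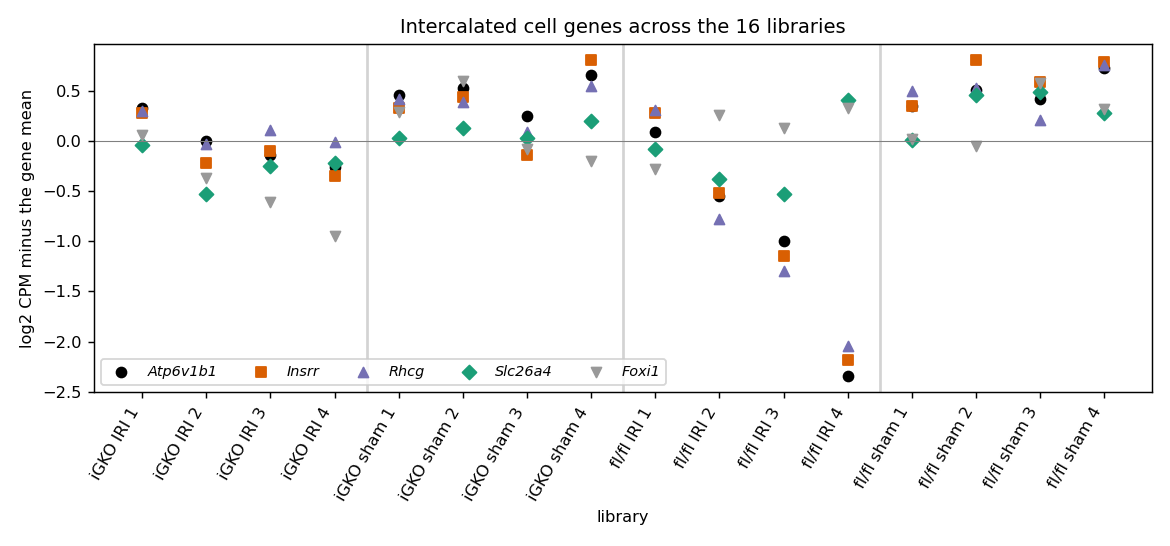
Log2 CPM minus the gene's mean over the 16 libraries for Atp6v1b1, its nearest genes Insrr and Rhcg, and the intercalated cell genes Slc26a4 and Foxi1, each marker being 1 library. In fl/fl IRI 4 Atp6v1b1, Insrr and Rhcg lie at -2.35, -2.18 and -2.04, while Slc26a4 and Foxi1 lie at 0.41 and 0.33. Insrr and Rhcg were picked for likeness to Atp6v1b1 over these libraries, and Slc26a4 and Foxi1 were not.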

How the data were processed

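RNA-seq of kidney cortex was deposited by the authors as raw counts per gene in 16 libraries. Per the submitters' processing notes the tools included DESeq2 1.36.0, featureCounts 1.6.3, STAR 2.7.9a and cutadapt 1.16, besides MultiQC, Picard and FastQC, with build GRCm39 (mm39). Per the labels' protocols, ribosomal RNA was depleted and the libraries were stranded. The strand setting of the counting is not given in the sources used here, so overlapping genes on opposite strands may share reads (Avpr2 with Arhgap4, at 8.29 CPM, and Nr3c2 with Gm10649, at 0.173 CPM). Symbols for 52073 of 56980 IDs came from GENCODE M21. IDs without one took 0.84% to 1.77% of counts.

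The test was that of edgeR 4.0.16 (R 4.3.3): filterByExpr by group, TMM scaling, and a quasi-likelihood fit of the 4 group means to all 16 libraries. Two-sided p-values, adjusted by Benjamini-Hochberg over 17972 genes, were held against a threshold of 0.05. The standard error is the size of a log2 fold change over the root of its F value, and the 95% interval follows from it. The 6 comparisons were IRI against sham in each genotype and on average, iGKO against fl/fl after each surgery, and the interaction. The procedure was tested on simulated data. Libraries of a group are numbered replicates, and none were alike within sampling noise (chi-square per degree of freedom at least 8.99). The labels do not say that each is a separate mouse, so p-values measure the spread between these libraries, which may be technical. Levels per kilobase use the merged length of all annotated exons of a gene in GENCODE M21. That length can exceed that of the transcripts present, so the order of levels between genes depends on it. The 10 genes and all gene lists were chosen with earlier results of these data known. Named genes are the 10 and Degs1, up to 4 genes per pathway list with the smallest p for the average IRI effect, and the 2 genes most like each of the 10. Some list genes are not reported here by name. Alternatives were DESeq2 1.42.0 as the test, its size factors in edgeR, library size alone, no filter, a replicate block, the compared groups alone, and leaving out each library. Leaving out fl/fl IRI 1 and iGKO sham 4 together was added after the data were seen.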

Additional observations from a re-analysis of the deposited data

Results flagged for a closer look

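In 44 groups of 4 libraries, over the 10 genes and Degs1, the gap between the highest or lowest library and its neighbour was set against the whole range of the group and held against Dixon's 95% critical value, which chance exceeds in about 1 of 20 groups. It was exceeded by 2, both in fl/fl IRI 1. Avpr2 stood there at 9.71 CPM, against 2.79 to 3.79 CPM in fl/fl IRI 2 to 4, with a gap of 0.856 of the range. Slc4a1 stood there at 47.2 CPM, against 6.54 to 11.5 CPM in fl/fl IRI 2 to 4, with a gap of 0.878 of the range.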

How the results depend on the processing

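Of 1360 values of the 10 genes under other settings, 1277 kept their direction and side of the threshold, 30 lost a call, 27 gained one and 26 changed sign; the cause was not tested. Members called in fl/fl (4) were 0 with the compared groups alone, 6 with fl/fl IRI 1 and iGKO sham 4 both left out, and 0 to 6 over libraries left out singly. For the average (3) they were 5 by DESeq2, 2 by library size alone, 6 with both left out and 1 to 5 singly. For iGKO against fl/fl after IRI (0) they were 1 by DESeq2, 4 with both left out and 0 to 4 singly, and for the interaction (0) they were 2 with both left out and 0 to 2 singly. Genes called overall in iGKO (0) were 43 by DESeq2, 4 without a filter and 0 to 1 singly; in fl/fl (2779) they were 1526 with the groups alone, 5508 with both left out and 1452 to 4335 singly; on average (2133) 4459 with both left out and 1379 to 3542 singly. After IRI between genotypes (153) they were 948 by DESeq2, 85 by library size alone, 352 without a filter, 0 with the groups alone, 3816 with both left out and 0 to 2495 singly. For the interaction (0) they were 113 by DESeq2, 15 without a filter, 1489 with both left out and 0 to 776 singly. Between libraries of the same replicate number, correlations of deviations ran from -0.335 to 0.399 over 24 pairs. Pairs of unlike number were not measured, so these values cannot show whether the numbers pair the libraries. With a replicate block 4 members were called in fl/fl and 3 on average. Genes called overall were then 2495 in fl/fl, 1907 on average, 0 between genotypes after IRI and 1 for the interaction. Degs1 lost its call between genotypes after IRI with that block (edgeR adjusted p = 0.0544). Signs changed over single libraries left out, with ranges in iGKO of -0.10 to 0.27 for Avpr2, -0.42 to 0.10 for Slc4a1, -0.028 to 0.28 for Hsd11b2 and -0.18 to 0.063 for Degs1; in fl/fl of -0.20 to 0.022 for Foxi1; on average of -0.0033 to 0.11 for Degs1; between genotypes after IRI of -0.28 to 0.064 for Slc26a4; after sham of -0.022 to 0.092 for Scnn1b, -0.013 to 0.29 for Scnn1g, -0.029 to 0.17 for Avpr2, -0.090 to 0.059 for Atp6v1b1 and -0.22 to 0.082 for Foxi1; and for the interaction of -0.047 to 0.17 for Scnn1b and -0.055 to 0.28 for Slc26a4. By library size alone, which moved the median of all genes in iGKO by 0.12, Scnn1b was 0.037 and Degs1 0.053 in iGKO. With both libraries left out Slc4a1 was 0.10 in iGKO, Foxi1 0.012 in fl/fl and 0.055 after sham, and Scnn1b -0.0036 for the interaction. Avpr2, with 41 to 237 reads, was the most limited by depth.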
